A study of Homo sapiens with 4 samples.

Results

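The replication-dependent histone genes encode the core histones H2A, H2B, H3 and H4 and the linker histones H1 that package newly made DNA. They were chosen by gene name, as the symbols H1-1 to H1-6 and every H2AC, H2BC, H3C and H4C symbol followed by a number alone, and 66 of the 60617 listed genes matched. These were 6 H1, 16 H2A, 17 H2B, 13 H3 and 14 H4 genes. U87MG is an established human glioblastoma line, here grown as spheres in DMEM/F12 with EGF and bFGF (each at 20 ng/ml), 2% B27 and N2 supplement. Spheres that had abemaciclib for 14 days were compared with untreated spheres, also labelled day 14. The drug blocks the cell cycle kinases CDK4 and CDK6. Each group had 2 poly-A RNA libraries, all of the same line, so nothing here speaks of other lines. The sources used here do not give the dose, nor any vehicle in the untreated spheres. The labels do not say that the 2 libraries of a group came from separate cultures, so the p-values cover the spread among these 4 libraries alone, and that spread may be technical.

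Most mRNAs end in a poly-A tail, but replication-dependent histone mRNAs normally end just after a short stem-loop, which the protein SLBP binds and which is cut with the help of the U7 small nuclear RNP. They accumulate in S phase, when DNA is copied, and are degraded when replication stops. Some histone genes also make longer mRNAs that run past the stem-loop to an ordinary poly-A signal, a form known from differentiated and resting cells. A poly-A library draws mainly on tailed RNA, so the values below describe what such a library captured from these genes and not the whole of their mRNA. In bulk RNA, fewer cells that express a gene and less RNA per cell cannot be told apart.

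The 3′ ends of the genes are shown because they decide which form of a histone mRNA a poly-A library can capture. A search of the first 150 bases after the stop codon, on the coding strand of GENCODE 29 transcripts, asked for a 16-base element that begins with GG, ends with CC, has TTT followed after 2 further bases by A in its middle, and pairs over a stem of 6 bases (G with T allowed). It found one in 27 of the 66 genes. The 32 genes annotated with their coding part alone, H1-2 and H2BC12 among them, had no sequence there to search. The same holds for the 2 genes without a GENCODE 29 transcript. A missing match in these genes therefore does not mean that they lack a stem-loop. The 16-base core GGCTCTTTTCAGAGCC was shared by 15 genes, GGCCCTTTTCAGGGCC by 4 H4 genes, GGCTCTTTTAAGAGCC by H2BC4, H2BC5, H2BC7 and H3C8, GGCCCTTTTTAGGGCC by 3 H4 genes, and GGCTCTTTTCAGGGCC was found in H2AC11. The sites below are the ones of the genes that the results turn on, in the DNA alphabet with the stem and loop in capitals, on GRCh38.
H2AC6 stem-loop, chr6:26124664-26124689, plus strand: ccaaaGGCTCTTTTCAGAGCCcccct
H2BC21 stem-loop, chr1:149886183-149886208, minus strand: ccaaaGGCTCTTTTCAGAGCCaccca
H2BC5 stem-loop, chr6:26158582-26158607, plus strand: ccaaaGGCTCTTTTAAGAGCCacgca
H4C8 stem-loop, chr6:26285126-26285151, minus strand: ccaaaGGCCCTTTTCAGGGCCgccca
H4C14 stem-loop, chr1:149833027-149833052, plus strand: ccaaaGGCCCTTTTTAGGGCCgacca
H2AC11 stem-loop, chr6:27133510-27133535, plus strand: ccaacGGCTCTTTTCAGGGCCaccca

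Genes annotated with their coding part alone, or without a transcript, could not be searched for a poly-A signal either. Of the 66 genes, 18 had a GENCODE 29 transcript with AATAAA, the usual poly-A signal, in its last 50 bases and at least 100 bases after the stop codon. The signals of 5 of them are shown because these genes differed between the groups, with the signal in capitals.
H2AC6 poly-A signal, 1158 bases after the stop codon, chr6:26139076-26139102, plus strand: ctggcatgaggtAATAAAaggtaatgc
H2BC21 poly-A signal, 1777 bases after the stop codon, chr1:149884465-149884494, minus strand: gctattgttattAATAAAgttaccaattaa
H2BC5 poly-A signal, 359 bases after the stop codon, chr6:26171313-26171342, plus strand: aaagttataattAATAAAatctgcggagaa
H4C8 poly-A signal, 662 bases after the stop codon, chr6:26281062-26281091, minus strand: caataaaaggtgAATAAAatcaggtcactc
H3C10 poly-A signal, 793 bases after the stop codon, chr6:27811266-27811295, plus strand: tttgtatgactaAATAAAatctgtataatc
Distances from the stop codon were counted along the spliced transcript. In each of these genes the AATAAA lies downstream of the stem-loop on the genome, though the same transcript need not hold both. A match is a description of these letters and not evidence that the site was used.

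Expected counts, the estimates of reads per gene that were deposited, reached 10 or more over the 4 libraries in 33 of the 66 genes. The same minimum was reached by 33.8% of all listed genes and by 73.8% of the 19886 protein-coding genes matched to GENCODE 29. The detected genes were 2 of 6 H1, 8 of 16 H2A, 11 of 17 H2B, 6 of 13 H3 and 6 of 14 H4 genes. A further 20 genes had fewer than 10 counts but not 0, and 13 had 0 counts in every library, which allows up to 0.0898 to 0.127 CPM (counts scaled by the library total) per library at 3 counts, for counting error only. The 13 genes were 1 H1, 4 H2A, 4 H2B, 1 H3 and 3 H4 genes. On chromosome 6, which holds the major histone cluster, 24 of 53 genes were detected, and on chromosome 1 9 of 11. All 19 genes annotated with at least 300 bases after the stop codon were detected, as were 9 of the 13 with a shorter end. Of the 32 genes annotated with their coding part alone, 5 were detected (H1-2, H2AC7, H2AC20, H2BC12 and H3C4), and of the 2 without a GENCODE 29 transcript (H3C2 and H3C3), neither was. All 18 genes with a poly-A signal at an annotated end were detected, as were 25 of the 27 with a stem-loop in a transcript. Which annotation the counting used is unknown here, so the part of a gene that could collect reads and the expression of its tailed form cannot be told apart.

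**Figure D1:**
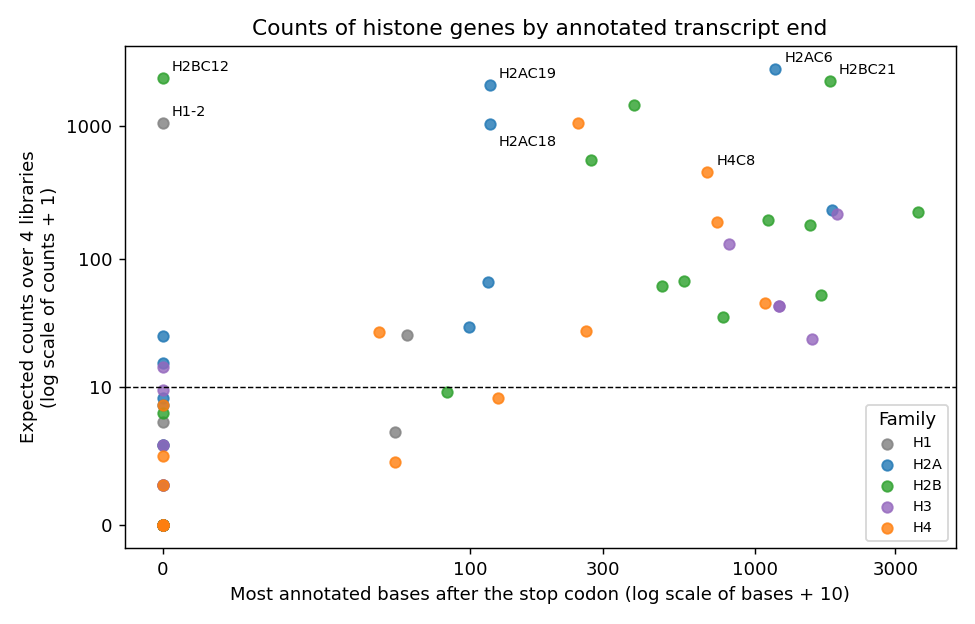
Expected counts summed over the 4 libraries (y axis, log scale of counts + 1) against the most bases annotated after the stop codon in GENCODE 29 (x axis, log scale of bases + 10), 1 point per gene, coloured by family, with the dashed line at 10 counts. All 19 genes at 300 or more bases lie above the line, while most genes at 0 bases lie below it, H1-2 and H2BC12 being well above.

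The 66 genes held 4203 and 5781 expected counts in the abemaciclib libraries, against 3361 and 3543 in the untreated libraries. Their summed level was 175.7 ± 2.44 CPM in abemaciclib libraries and 114.2 ± 11.5 CPM in untreated libraries (SD, n = 2 each), a ratio of 1.54. Both abemaciclib sums (177.5 and 174.0 CPM) lay above both untreated sums (122.3 and 106.0 CPM). A sum over chosen genes was given no test. The 5 genes listed as known to make polyadenylated mRNA (H1-2, H2AC6, H2BC5, H2BC12 and H2BC21) held 57.0% and 58.9% of these counts in abemaciclib libraries and 55.8% and 56.4% in untreated libraries, so a few genes set the sum. On chromosome 6 the summed level was 111.8 and 111.0 CPM in abemaciclib libraries, against 65.2 and 58.5 CPM in untreated libraries, a ratio of 1.80. On chromosome 1 it was 65.4 and 62.8 CPM in abemaciclib libraries, against 57.0 and 47.5 CPM in untreated libraries, a ratio of 1.23.

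The summed levels of the families differed in direction and were given no test. The H2A genes summed to 69.4 and 65.5 CPM in abemaciclib libraries, against 41.1 and 36.2 CPM in untreated libraries, a ratio of 1.75. The H2B genes summed to 79.0 and 80.9 CPM in abemaciclib libraries, against 49.0 and 42.2 CPM in untreated libraries, also a ratio of 1.75. The H3 genes summed to 6.59 and 5.77 CPM in abemaciclib libraries, against 2.45 and 2.59 CPM in untreated libraries, a ratio of 2.45. In these 3 families both abemaciclib libraries lay above both untreated ones. The H4 genes summed to 16.4 and 16.6 CPM in abemaciclib libraries, against 16.01 and 13.0 CPM in untreated libraries, a ratio of 1.14. The H1 genes were lower, at 5.996 and 5.12 CPM in abemaciclib libraries, against 13.7 and 12.1 CPM in untreated libraries, a ratio of 0.431. H1-2 held 1054 of the 1092 H1 counts, and without it the log2 ratio of the remaining H1 genes was 0.44. That ratio rests on few counts. Summed per group, abemaciclib first, H1-4 had 17 and 9 counts and H1-5 had 3 and 2. H1-3 had 1 and 2 and H1-6 had 0 and 4, and H1-1 had none.

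**Figure D2:**
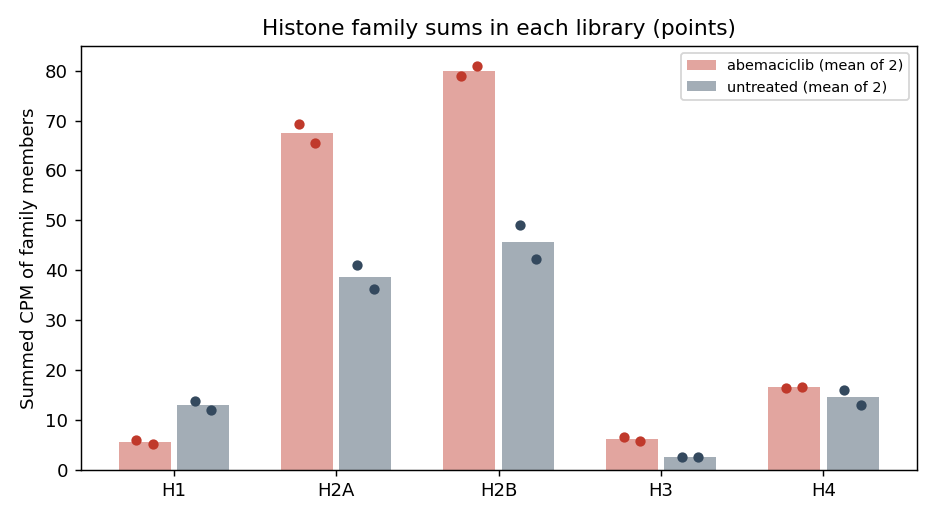
Summed level of each histone family in CPM (y axis), with bars for the mean of the 2 abemaciclib libraries (red, left) and the 2 untreated libraries (grey, right) and points for single libraries. H2A, H2B and H3 points lie higher in abemaciclib, H1 points lower, and the H4 abemaciclib points of 16.4 and 16.6 CPM lie just above the untreated ones of 16.01 and 13.0 CPM.

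Of the 66 genes, 26 had enough counts to be tested (edgeR quasi-likelihood F test, Benjamini-Hochberg adjusted over 17207 genes). At an adjusted p under 0.05, 13 were higher after abemaciclib, beside 38.0% of all tested genes, and 3 were lower, beside 39.3% of all tested genes. The other 10 did not pass, and 77.3% of all tested genes were called in either direction. Both abemaciclib libraries lay above both untreated ones in 16 of the 26, beside 46.0% of all tested genes, and below both in 5, beside 42.2%. The median log2 fold change of the 26 was 0.60, also with the 3 genes of 1 or 0 rounded untreated counts at their bound, beside -0.01 for all tested genes. These counts are no support for a rise of the group, because 8 of the 26 passed the count filter only through the abemaciclib libraries, a filter that favours genes high there: H2AC8, H2AC13, H2BC7, H2BC9, H2BC11, H3C10, H3C14 and H3C15. Of these 8, 7 were called higher, and H2BC9, whose groups overlap, did not pass. One more, H4C5, passed only through the untreated libraries. Among the 17 genes that passed the filter in both groups, 6 were higher (35.3%), 3 were lower (17.6%) and 8 did not pass the test. The share called higher among these 17 was close to the 38.0% of all tested genes, and the share called lower was below their 39.3%. Those shares also cover genes that passed the filter through 1 group only. No share was computed over all genes that passed in both groups, so the comparison is not like for like. The 17 also count H2AC18 and H2AC19, and H4C14 and H4C15, as separate genes though their coding sequences are identical. Among the 8, H3C14 and H3C15 had the same value in every library. They are 1 measurement that is counted 2 times in the 26, the 16 and the 13.

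**Figure D3:**
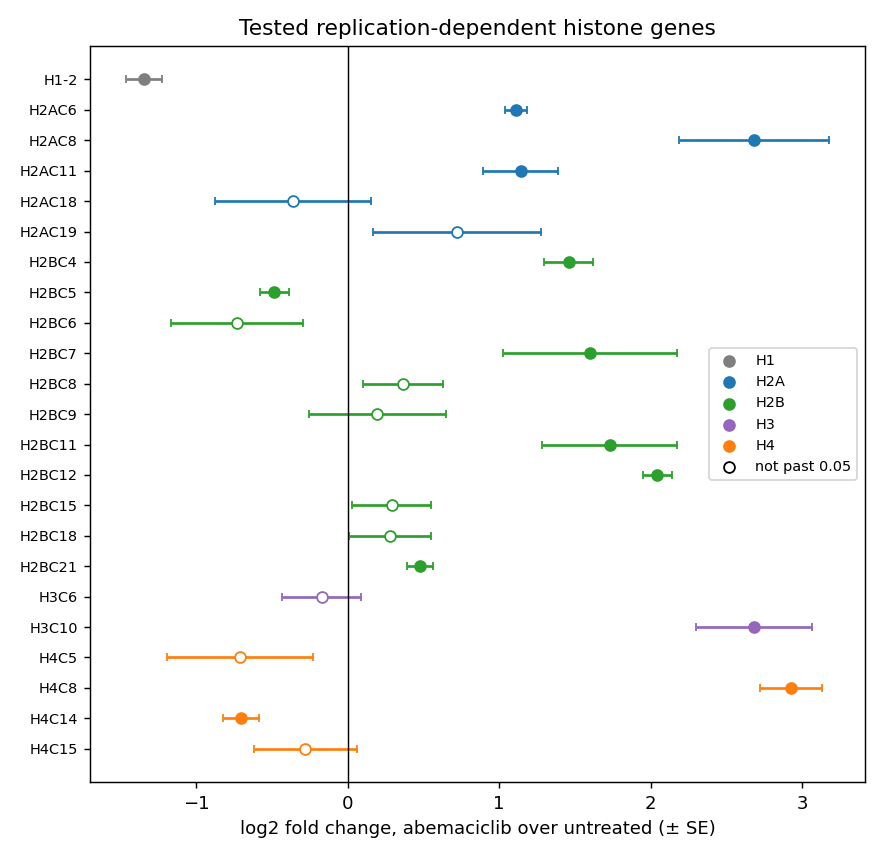
Log2 fold change (abemaciclib over untreated, x axis) with its standard error for 23 of the 26 tested histone genes, ordered by family, with filled points for an adjusted p under 0.05 in edgeR and open points otherwise. The 3 genes with 1 or fewer rounded untreated counts (H2AC13, H3C14 and H3C15) are left out, and the called points run from -1.35 for H1-2 to 2.93 for H4C8.

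Among the H2A genes, which encode the core histone that pairs with H2B in the nucleosome, H2AC6 (chr6:26124145-26139116) had the most counts of all 66 genes. H2AC6 was at 32.8 and 31.7 CPM in abemaciclib libraries, against 14.7 and 14.0 CPM in untreated libraries. The groups do not overlap, and H2AC6 rose by 1.11 ± 0.07 on the log2 scale (SE; adjusted p = 6.25e-15 in edgeR). H2AC11 (chr6:27133042-27135291) was at 2.83 and 2.80 CPM in abemaciclib libraries, against 1.06 and 1.38 CPM in untreated libraries, a rise of 1.14 ± 0.25 in log2 (edgeR adjusted p = 0.000137). H2AC8 was at 1.18 and 0.873 CPM in abemaciclib libraries, against 0.218 and 0.0898 CPM in untreated libraries, on 57 and 9 counts in all, and rose by 2.68 ± 0.50 (log2, edgeR adjusted p = 1.52e-05). H2AC13 had 14 and 15 counts in abemaciclib libraries and 1 and 0 in untreated libraries, a ratio of scaled counts of 29.9 with an exact 95% interval of 4.96 to 1221 that covers counting error only. All of these lie in the chromosome 6 cluster. H2AC7, also there, was detected but not tested, with 6.70 and 17.75 counts in abemaciclib libraries and 0 and 1.28 in untreated libraries. It was called higher in DESeq2 and in the edgeR fit with no count filter. H2AC7 and H3C4 overlap AL031777.2 on their own strand, so reads of these genes may not be told apart.

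H2AC18 and H2AC19 sit on chromosome 1, on opposite strands, with their lowest coordinates 8873 bases apart. The coding sequences of 393 bases have 0 mismatches. Reads within the shared sequence cannot be assigned to either gene, and their counts were not whole. H2AC18 was at 6.56 and 8.63 CPM in abemaciclib libraries, against 6.17 and 12.5 CPM in untreated libraries (log2 fold change -0.36 ± 0.52, edgeR adjusted p = 0.587). H2AC19 was at 24.9 and 20.1 CPM in abemaciclib libraries, against 18.7 and 7.97 CPM in untreated libraries (0.72 ± 0.56, adjusted p = 0.352). Within the untreated group the split of the reads between the copies differed widely, since H2AC18 took 24.8% of the summed counts in replicate 1 and 61.1% in replicate 2, while it took 20.9% and 30.1% in the abemaciclib libraries. The sum of both copies was steadier, at 31.4 and 28.7 CPM in abemaciclib libraries, against 24.9 and 20.5 CPM in untreated libraries. Tested as 1 feature, it rose by 0.35 ± 0.08 (log2, edgeR adjusted p = 0.000474), a fit added after the data were seen. Without untreated replicate 1, H2AC18 was called lower (log2 -0.76) and H2AC19 higher (1.43), so the call for either copy alone changed with 1 library. It also changed with the model, since with all 4 libraries limma-voom called H2AC19 higher (0.85, adjusted p = 0.00194) and edgeR with the replicate number as a block called H2AC18 lower (-0.35, adjusted p = 0.0234).

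**Figure D4:**
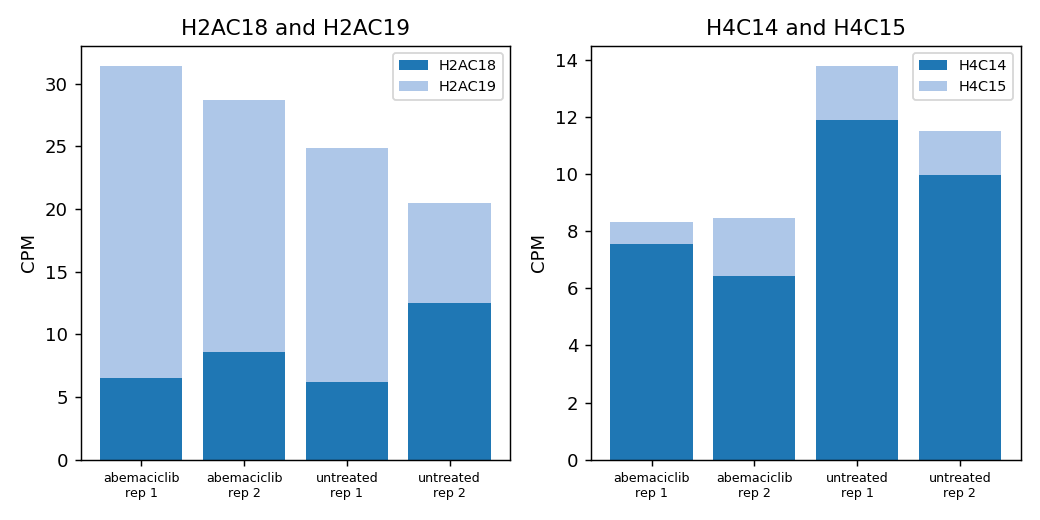
Level in CPM (y axis) of H2AC18 and H2AC19 (left) and of H4C14 and H4C15 (right), stacked, in each abemaciclib and untreated library. The total of H2AC18 and H2AC19 is higher in abemaciclib libraries (31.4 and 28.7 CPM, against 24.9 and 20.5 CPM in untreated libraries), while the dark share of untreated replicate 2 is far larger than in the other libraries.

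The H2B genes held both strong rises and a fall. H2BC12 (chr6:27146418-27146798) was at 30.2 and 33.7 CPM in abemaciclib libraries, against 8.44 and 6.67 CPM in untreated libraries. Its log2 fold change of 2.04 ± 0.09 (edgeR adjusted p = 5.38e-17) is a ratio of 4.12, and the groups are far apart. H2BC4 (chr6:26114873-26123926) was at 7.73 and 6.74 CPM in abemaciclib libraries, against 2.80 and 2.27 CPM in untreated libraries, a rise of 1.46 ± 0.16 in log2 (edgeR adjusted p = 1.45e-09). H2BC21 (chr1:149884459-149886652) was at 22.4 and 21.8 CPM in abemaciclib libraries, against 16.9 and 13.9 CPM in untreated libraries, a smaller rise of 0.48 ± 0.08 (edgeR adjusted p = 9.97e-06). H2BC5 (chr6:26158146-26171349) went the other way, at 10.3 and 10.5 CPM in abemaciclib libraries, against 14.7 and 13.4 CPM in untreated libraries, and fell by 0.49 on the log2 scale (SE 0.10, edgeR adjusted p = 3.91e-05). H2BC5 overlaps LARP1P1 on its own strand and AL353759.1 on the other, and it is unknown here whether the counting used strand, so reads of these genes may not be told apart.

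The remaining H2B genes were at low levels. H2BC11 was at 1.01 and 0.843 CPM in abemaciclib libraries, against 0.365 and 0.180 CPM in untreated libraries (log2 1.73 ± 0.45, edgeR adjusted p = 0.000887), and the call was lost without untreated replicate 2 (adjusted p = 0.0513) and in DESeq2 (0.0581). H2BC7 was at 0.380 and 0.542 CPM in abemaciclib libraries, against 0.0728 and 0.209 CPM in untreated libraries (1.60 ± 0.58, edgeR adjusted p = 0.0132), and the call was lost without untreated replicate 1 (0.207), without abemaciclib replicate 2 (0.202) and in DESeq2 (0.225). The 5 others did not pass. H2BC8 was at 1.98 and 1.87 CPM in abemaciclib libraries, against 1.60 and 1.29 CPM in untreated libraries, and H2BC18 was at 1.60 and 1.81 CPM in abemaciclib libraries, against 1.28 and 1.44 CPM in untreated libraries. H2BC6 was at 0.338 and 0.451 CPM in abemaciclib libraries, against 0.800 and 0.509 CPM in untreated libraries, and H2BC9 was at 0.464 and 0.512 CPM in abemaciclib libraries, against 0.509 and 0.329 CPM in untreated libraries. H2BC15 was at 2.62 and 1.78 CPM in abemaciclib libraries, against 1.49 and 1.89 CPM in untreated libraries. Their adjusted p in edgeR ran from 0.128 for H2BC6 to 0.702 for H2BC9, and the groups overlapped in H2BC9 and H2BC15. H2BC15 and H2BC18 overlap other genes on the same strand (H2AC16 and AC243772.2).

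The H3 genes, which encode the core histone that carries many regulatory marks, were detected in few reads. H3C10 (chr6:27810064-27811300) was at 2.53 and 1.53 CPM in abemaciclib libraries, against 0.327 and 0.269 CPM in untreated libraries, on 111 and 18 counts in all, a rise of 2.68 ± 0.38 in log2 (edgeR adjusted p = 2.25e-07). H3C14 and H3C15, on opposite strands with their lowest coordinates 13081 bases apart, have coding sequences of 411 bases with 0 mismatches. Both were listed with the same value in every library, 16 and 26.34 counts in abemaciclib libraries and 0.50 and 0.50 in untreated libraries. They are therefore 1 measurement. As a sum they had 85 counts in abemaciclib libraries and 2 in untreated libraries after rounding, a ratio of scaled counts of 43.8 with an exact 95% interval of 11.8 to 367.6. Tested as a single feature in edgeR, the adjusted p was 2.00e-09. The size of a fitted fold change at such counts depends on the prior count and is not printed. H3C6 was at 2.15 and 1.47 CPM in abemaciclib libraries, against 1.86 and 2.00 CPM in untreated libraries, so the groups overlap (log2 -0.17 ± 0.26, edgeR adjusted p = 0.555). H3C14 and H3C15 each overlap an H4 gene on the opposite strand, H4C14 and H4C15.

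The H4 genes moved in opposite directions. H4C8 (chr6:26277609-26285638) was at 7.14 and 6.95 CPM in abemaciclib libraries, against 1.06 and 0.748 CPM in untreated libraries, a rise of 2.93 ± 0.20 in log2 (edgeR adjusted p = 3.51e-14) and a ratio of 7.60. H4C14 (chr1:149832659-149839767) was at 7.56 and 6.43 CPM in abemaciclib libraries, against 11.9 and 9.96 CPM in untreated libraries, and fell by 0.70 on the log2 scale (SE 0.12, edgeR adjusted p = 4.12e-06). Its copy H4C15 was at 0.755 and 2.02 CPM in abemaciclib libraries, against 1.90 and 1.53 CPM in untreated libraries (-0.28 ± 0.34, adjusted p = 0.462), and was called lower without abemaciclib replicate 2 (log2 -1.20). The coding sequences of 312 bases have 0 mismatches, and H4C14 took 90.9% and 76.1% of their summed counts in abemaciclib libraries, against 86.2% and 86.7% in untreated libraries. The sum was 8.32 and 8.46 CPM in abemaciclib libraries, against 13.8 and 11.5 CPM in untreated libraries, and fell by 0.64 (SE 0.11, edgeR adjusted p = 3.87e-06), so the fall does not rest on how the reads were split. H4C5 was at 0.380 and 0.241 CPM in abemaciclib libraries, against 0.509 and 0.449 CPM in untreated libraries, and did not pass (adjusted p = 0.181).

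H1-2 (chr6:26055787-26056428) is the linker histone H1.2, which binds DNA between nucleosomes, and was the single H1 gene tested. It was at 5.57 and 4.79 CPM in abemaciclib libraries, against 13.5 and 11.8 CPM in untreated libraries. The groups do not overlap, and it fell by 1.35 on the log2 scale (SE 0.12, edgeR adjusted p = 1.22e-11). H1-4, with 8 and 9 counts in abemaciclib libraries and 4 and 5 in untreated libraries, was detected but not tested. The other detected but untested genes were H2AC20, H3C4, H3C8, H4C9 and H4C11, and no untested gene had more than 28 counts over the 4 libraries.

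Histone genes often lie head to head, an H2A and an H2B gene leaving a shared promoter in opposite directions. There were 11 pairs of the 66 genes on opposite strands with starts within 1000 bases, at 219 to 357 bases. H2BC4 and H2AC6, 219 bases apart, were both called higher, as were H2BC11 and H2AC11, 292 bases apart. In other pairs the partners differed in their calls or counts. H2BC12 was called higher with 715 and 1121 counts in abemaciclib libraries and 232 and 223 in untreated libraries, while H2AC12, whose start is 331 bases away, had 0 in every library. H2BC21 was called higher, and H2AC20, 323 bases away, had 5.15 and 6.24 counts in abemaciclib libraries and 3.13 and 1.06 in untreated libraries. H2AC8 was called higher while H2BC8, 283 bases away, did not pass. H2AC13 was called higher, with 14 and 15 counts in abemaciclib libraries and 1 and 0 in untreated libraries. Its partner H2BC13, 268 bases away, was not tested, with 1 and 7 counts in abemaciclib libraries and 0 and 1 in untreated libraries. H2AC7 was not tested, with 6.70 and 17.75 counts in abemaciclib libraries and 0 and 1.28 in untreated libraries. H2BC7, 277 bases away, was called higher, with 9 and 18 counts in abemaciclib libraries and 2 and 7 in untreated libraries. Both thus had more counts in abemaciclib. The pairs H2AC1 with H2BC1 and H2AC14 with H2BC14 had 0 counts in every library.

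The windows around the starts of 61 of the 66 genes (RefSeq, GRCh38.p14, 250 bases before to 50 after the start) were searched for 3 motifs on both strands. TATAAA was present in 42 of 61 genes (68.9%), beside 14.0% of the 27305 genes of the table. CCAAT was present in 52 of 61 (85.2%), beside 39.7%, and in the H4 family in 3 of 12. The octamer ATTTGCAT was present in 26 of 61 (42.6%), beside 2.19%, and lay mostly in the H2A (11 of 15) and H2B (14 of 17) windows, with 1 of 11 in H3 and 0 of 6 in H1 and 0 of 12 in H4. Head-to-head genes share much of their windows and are not independent in these counts. The windows of 2 genes called higher and 2 called lower are shown because genes of 1 family moved in opposite directions, with every match in capitals (a match on the other strand reads as the reverse complement).
H2BC12 (higher), chr6:27146806-27147105, minus strand: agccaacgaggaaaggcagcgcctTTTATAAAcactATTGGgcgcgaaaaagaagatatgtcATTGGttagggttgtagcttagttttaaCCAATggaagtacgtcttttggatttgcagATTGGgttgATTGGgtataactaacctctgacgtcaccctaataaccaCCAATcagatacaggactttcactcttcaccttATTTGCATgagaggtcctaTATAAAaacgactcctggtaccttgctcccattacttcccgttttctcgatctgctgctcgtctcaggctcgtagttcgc
H2BC5 (lower), chr6:26157872-26158171, plus strand: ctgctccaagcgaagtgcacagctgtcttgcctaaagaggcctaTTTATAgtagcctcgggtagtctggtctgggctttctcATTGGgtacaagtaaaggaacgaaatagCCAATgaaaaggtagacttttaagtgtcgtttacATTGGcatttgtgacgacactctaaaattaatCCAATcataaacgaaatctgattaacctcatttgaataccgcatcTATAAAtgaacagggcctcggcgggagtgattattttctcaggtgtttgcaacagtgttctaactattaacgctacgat
H4C8 (higher), chr6:26285485-26285784, minus strand: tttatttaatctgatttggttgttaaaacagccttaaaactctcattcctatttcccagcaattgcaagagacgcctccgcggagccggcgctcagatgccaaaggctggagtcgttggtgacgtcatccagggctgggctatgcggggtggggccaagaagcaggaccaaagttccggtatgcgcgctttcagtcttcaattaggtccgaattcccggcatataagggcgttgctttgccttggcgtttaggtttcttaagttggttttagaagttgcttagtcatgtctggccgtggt
H4C14 (lower), chr1:149832407-149832706, plus strand: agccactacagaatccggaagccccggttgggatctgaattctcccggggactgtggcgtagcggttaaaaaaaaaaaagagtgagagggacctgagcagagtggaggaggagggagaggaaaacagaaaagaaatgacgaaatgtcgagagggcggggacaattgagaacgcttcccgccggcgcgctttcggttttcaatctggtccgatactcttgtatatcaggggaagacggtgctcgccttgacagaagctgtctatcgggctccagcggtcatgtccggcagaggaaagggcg
The H2BC12 window holds TATAAA 3 times, CCAAT 6 times and the octamer once, where TTTATAAA counts for TATAAA on both strands, while the H2BC5 window holds TATAAA 2 times and CCAAT 4 times and has no octamer. Among other tested H2B genes, the octamer was in the windows of H2BC4, H2BC7, H2BC11 and H2BC21, which were called higher. It was also in those of H2BC6, H2BC8, H2BC9 and H2BC18, which did not pass. Neither H4 window holds any of the 3 motifs in these letters. Whether a motif goes with the direction of a call was not tested.

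Of 20 genes of histone mRNA 3′ processing and histone gene transcription, 9 were higher, 6 lower and 5 did not pass, with a median log2 fold change of 0.05. Over all tested genes, 38.0% were higher and 39.3% lower, to be read beside the counts of this list and the next. SLBP, the stem-loop binding protein, was at 42.2 and 44.2 CPM in abemaciclib libraries, against 38.6 and 39.9 CPM in untreated libraries (0.08 ± 0.05, edgeR adjusted p = 0.148). NPAT, the cyclin E and CDK2 target that drives histone gene transcription, was at 3.04 and 3.73 CPM in abemaciclib libraries, against 3.64 and 2.93 CPM in untreated libraries (0.01 ± 0.19, adjusted p = 0.955). ERI1, an exonuclease that trims histone mRNA ends, rose by 1.20 ± 0.09 (log2, edgeR adjusted p = 2.51e-13). CCNE1, which encodes cyclin E1, rose by 1.08 ± 0.11, NCBP1 of the cap-binding complex by 1.04 ± 0.08, and CPSF3, the nuclease that cuts pre-mRNA ends, by 0.95 ± 0.06. Among the 6 lower genes, CCNE2, which encodes cyclin E2, fell by 0.83 (SE 0.23, edgeR adjusted p = 0.00204) and its partner CDK2 by 0.69 (SE 0.05, edgeR adjusted p = 9.83e-13), both named after their values were seen. Of 9 genes of histone mRNA decay, 4 were higher, 3 lower and 2 did not pass (median 0.05). TUT7, a uridylyl transferase, fell by 1.10 on the log2 scale (SE 0.06, edgeR adjusted p = 1.28e-16), at 21.2 and 22.2 CPM in abemaciclib libraries, against 46.6 and 43.4 CPM in untreated libraries. XRN1, the cytoplasmic exonuclease, fell by 0.60, and TUT1, another uridylyl transferase, by 0.24 with a call that DESeq2 did not make, while LSM1, which binds uridylated ends, rose by 0.43.

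Of 15 further histone genes, most of them replication-independent variants, 14 were tested. Of these, 2 were higher (H2AX and H2AW), 6 lower and 6 did not pass (median -0.12). The mRNAs of replication-independent variants are ordinarily polyadenylated, but how the mRNA of each of the 15 ends was not checked here. Over all tested genes, 38.0% were higher and 39.3% lower. H1-10, a replication-independent linker histone, was at 15.1 and 17.1 CPM in abemaciclib libraries, against 163.7 and 161.9 CPM in untreated libraries, and fell by 3.38 on the log2 scale (SE 0.05, edgeR adjusted p = 5.12e-32). CENPA, the centromeric H3, fell by 1.13 on the log2 scale (SE 0.17, edgeR adjusted p = 7.70e-07). H2AX, the DNA damage histone whose gene gives both a stem-loop and a tailed mRNA, was at 29.8 and 33.2 CPM in abemaciclib libraries, against 16.8 and 17.6 CPM in untreated libraries, and rose by 0.82 ± 0.07 (edgeR adjusted p = 8.37e-12). Of 21 histone chaperone and import genes, 11 were higher, 6 lower and 4 did not pass (median 0.22), beside the same shares of all tested genes. IPO4, an importin for H3 and H4, was at 74.7 and 73.0 CPM in abemaciclib libraries, against 19.7 and 21.4 CPM in untreated libraries (1.79 ± 0.05, edgeR adjusted p = 1.91e-23). CHAF1A, of the chromatin assembly factor that loads H3 and H4 at replication, rose by 1.13 ± 0.07, HAT1, which acetylates new H4, rose by 1.02 ± 0.05, and HJURP, the CENPA chaperone, fell by 1.10 (SE 0.08).

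**Figure D5:**
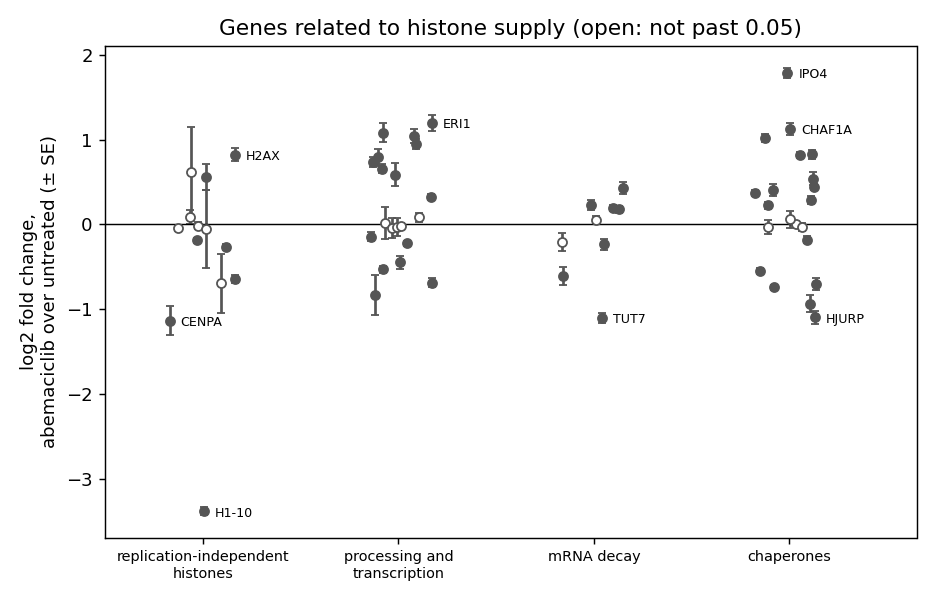
Log2 fold change (abemaciclib over untreated, y axis) with its standard error for the tested genes of 4 lists that are reported here (x axis), filled for an adjusted p under 0.05 in edgeR and open otherwise. The linker histone H1-10 (-3.38) lies lowest, IPO4 (1.79) highest, and each list holds genes on both sides of 0.

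The libraries held 23684260 and 33226884 expected counts in the abemaciclib group, against 27485206 and 33418075 in the untreated group. The part that poly-A selection played in the histone values was not tested, and 2 measures of the libraries moved with the groups. Among 18 RNAs that normally lack a tail, 5 were tested and 4 were lower (RN7SK, RN7SL1, RN7SL2 and RPPH1), beside 39.3% of all tested genes. The log2 fold changes of these 4 ran from -1.98 to -1.40, and 3 of the 18 were at 0 in every library. The list summed to 29.8 and 32.6 CPM in abemaciclib libraries, against 94.6 and 89.3 CPM in untreated libraries. The mitochondrial genome gave 11.8% and 11.7% of all counts in abemaciclib libraries, against 4.27% and 4.66% in untreated libraries. Of 8 glial and glioma stem markers, 6 were tested, 5 of them lower and 1 higher. Over all tested genes, 39.3% were lower and 38.0% higher, also to be read beside the marker counts below. Of the 8, VIM was highest, with means of 4447 CPM in abemaciclib and 5851 CPM in untreated libraries. CD44 was at 488 and 1316 CPM and NES at 70.5 and 95.8 CPM, abemaciclib mean first. OLIG2, SOX2 and PROM1 were at or below 5.48 CPM in every library, and S100B at or below 0.127 CPM. GFAP, the defining astrocyte gene, had 4 and 10 counts in abemaciclib libraries (0.169 and 0.301 CPM). In untreated libraries it had 7 and 8 (0.255 and 0.239 CPM). The 3 endothelial markers summed to 7.64 and 7.13 CPM in abemaciclib libraries, against 13.6 and 14.6 CPM in untreated libraries, where PECAM1 fell by 3.14 on the log2 scale (edgeR adjusted p = 1.63e-16), VWF rose by 0.40 (0.0136) and CDH5 was at or below 0.127 CPM. The 5 immune markers summed to at most 1.14 CPM in any library, with 1 higher and 1 lower of 2 tested, and the 3 erythroid ones ran from 4.00 to 5.15 CPM, with none of 3 past the test. The part of these in the histone values was not tested.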

How the data were processed

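The deposited expected counts (estimated reads per gene, not normalized) came from 4 poly-A libraries prepared from Trizol RNA with a stranded mRNA kit, per the labels' protocols. The build GRCh38, RSEM 1.3.1 and STAR 2.7.2b are named in the submitters' processing notes. The sources used here give neither the annotation nor the strand setting. RSEM shares out reads among matching genes, so 19 of the 66 genes had a value that was not whole.

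Counts were rounded and tested with edgeR 4.0.16 (quasi-likelihood F test, two-sided, filterByExpr, TMM, robust, group alone, Benjamini-Hochberg over 17207 genes). Levels are CPM of plain library totals and fold changes use TMM scaling. Errors of fold changes are the fold change over the square root of F. GENCODE 29 transcripts on GRCh38, matched by Ensembl identifier (96.4%), gave coordinates, stem-loops and poly-A signals, in place of a genome, and RefSeq GRCh38.p14 gave start windows. Tested genes were named with their values, as were the 4 largest changes per related list with SLBP, NPAT and H2AX. Some genes that this rule or the lists select are not reported here. DESeq2 1.42.0 and limma-voom 3.58.1 were alternatives. The test was tried on simulated data. The 66 genes and the lists were chosen with earlier results of these data known. Libraries of 1 group differed beyond sampling noise (chi-square over its degrees of freedom 1.95 in abemaciclib and 3.56 in untreated), so each library counted as 1 sample.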

Additional observations from a re-analysis of the deposited data

How the results depend on the processing

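The number of genes called higher, 13, was 12 to 14 with 1 library left out in turn and 12 to 15 under the other alternatives apart from the stricter filter, gained genes (H2AC7, H2AC18 in its summed copies, H2AC19 and H3C4) included. H3C4, gained with no count filter, had 0 and 13.18 counts in abemaciclib libraries and 0.34 and 0.94 in untreated libraries. Its call thus rests on 1 abemaciclib library. Of the 13, 12 to 13 kept the call with 1 library left out, and 11 in DESeq2, which lost H2BC7 and H2BC11. With a mean of at least 50 counts, 13 of the 66 genes were tested and 6 were higher, since the 7 others are not tested there. The lower count was 3 to 4. With the replicate block as a term, 13 were higher and 4 lower, H2AC18 being gained (adjusted p = 0.0234). The correlation of same-numbered deviations from the group means was -0.00022. With 2 libraries per group, the deviations of replicate 2 mirror those of replicate 1. The correlation therefore cannot tell whether same-numbered libraries shared a batch or culture. The log2 ratio of the summed level was 0.62 for all 66 genes and 0.52 to 0.73 without each library in turn, -1.33 to -1.10 for H1, 0.71 to 0.90 for H2A, 0.71 to 0.92 for H2B, 1.20 to 1.39 for H3 and 0.05 to 0.35 for H4. Without the gene of most counts it was 0.44 for H1 (against -1.21, on few remaining counts), 0.54 for H2A, 0.34 for H2B, 2.89 for H3 and 1.41 for H4. Among single genes, 537 of the alternative values kept their direction and side of the threshold, 6 gained and 6 lost the call, and 7 reversed, none of a called gene. Without each library in turn, H2AC18 ran from -0.76 (without untreated replicate 1) to 0.26 (without untreated replicate 2), H2BC9 from -0.11 (without untreated replicate 2) to 0.51, H3C6 from -0.43 to 0.11 (without abemaciclib replicate 2), H4C15 from -1.20 to 0.21 (without abemaciclib replicate 1), and NPAT from -0.15 (without abemaciclib replicate 2; -0.14 without untreated replicate 2) to 0.17. With copies summed, the feature holding H2AC18 was at 0.35. The cause was not tested. SLBP passed with library totals alone (log2 0.14), a scaling that moves the median of all genes to 0.04. The number of detected genes was 43 at 5 counts, 26 at 30 counts and 30 to 33 without 1 library. Each group has 2 libraries, so an exact permutation of 1 value cannot go below p = 0.333, and counts below 10 carry wide counting intervals.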

Other observations

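A further list of 6 histone loci that the naming rule leaves out was chosen after their values were seen. Of the 6, 2 were higher, 3 lower and 1 did not pass, beside 38.0% higher and 39.3% lower of all tested genes. Only some of them are named here, and their tests are no support for a shared change. H3-2, an H3 gene outside the rule, was at 15.1 and 17.1 CPM in abemaciclib libraries, against 5.74 and 5.66 CPM in untreated libraries, a rise of 1.45 ± 0.11 in log2 (edgeR adjusted p = 1.50e-13). The H2B pseudogenes H2BC19P and H2BC20P were lower. H2BC19P was at 3.82 and 5.32 CPM in abemaciclib libraries, against 9.36 and 10.9 CPM in untreated libraries, and fell by 1.18 on the log2 scale (SE 0.14, edgeR adjusted p = 1.89e-08). H2BC20P was at 3.96 and 3.83 CPM in abemaciclib libraries, against 6.78 and 6.33 CPM in untreated libraries, and fell by 0.80 (SE 0.14, edgeR adjusted p = 8.69e-06). Genes and pseudogenes of this family share sequence, so their reads may be split among them.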
